A study of Caenorhabditis elegans with 2 samples.

Results

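The cytosolic ribosomal protein genes are the genes that encode the protein components of the large and the small subunit of the cytoplasmic ribosome. They were taken as all protein-coding genes of the WBcel235 annotation whose symbol begins with rpl- (large subunit) or rps- (small subunit). This gave 78 genes, 47 of the large and 31 of the small subunit, of 19985 protein-coding genes in all. They were examined in a chromatin immunoprecipitation and sequencing (ChIP-seq) study of CEH-36, a homeodomain transcription factor, in early Caenorhabditis elegans embryos of both sexes, collected 2 hours after synchronization by egg bleaching. The worms were of strain OP620, which carries the mutant allele unc-119(tm4063) on chromosome III and the insertion wgIs620, from which CEH-36 is made with GFP and FLAG at its C-terminus. Both libraries share that background, and chromatin was precipitated through GFP (the label for the antibody reads ceh-36). There were 2 biological replicates of 1 group and no second condition, so the comparisons are between genes, between lists and between replicates, and none is a test. A precipitation from whole embryos cannot tell few cells with strong binding from many cells with weak binding.

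Ribosomal proteins are made in nearly all cells, in matched amounts, and ribosomal protein genes rank among the most actively transcribed genes of a growing animal. In C. elegans the primary transcripts of many such genes are trans-spliced: a spliced leader replaces the first stretch of the RNA, so that an annotated gene start can be a splice acceptor that lies downstream of the point where transcription begins. Introns of ribosomal protein genes often hold small nucleolar RNA (snoRNA) genes, whose products guide the modification of ribosomal RNA. CEH-36 belongs to the Otx class of homeodomain factors, which bind the core sequence TAATCC, and it has a known role in the fate of AWC and ASE sensory neurons.

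In all, 14 of the 78 ribosomal protein genes (17.9%) had an optimal peak, meaning that the authors' IDR thresholded (optimal) list had a summit no more than 1500 bp upstream or 500 bp downstream of the gene start. Of all protein-coding genes, 4.18% had one. The sequences below each span 75 bp either side of such a summit and were read from the RefSeq copy of WBcel235 (the same build as ce11), 5′ to 3′ on the strand of the gene. The first 6 are shown because short words recur among them. They are the 5 summits with 2 or more of the 4 words below, and rpl-35, which holds 1. Other summits that hold 1 such word are not shown. Capitals mark 4 short words on either strand. TACGGTA is called element 1 here, CGAGTGT is called element 2, AAGTGTA is called element 3 and TGGCCTA is called element 4. They were picked because they recur at the summits near ribosomal protein genes, so their counts at those summits describe the choice.
rpl-3, chrIII:3867525-3867675, plus strand: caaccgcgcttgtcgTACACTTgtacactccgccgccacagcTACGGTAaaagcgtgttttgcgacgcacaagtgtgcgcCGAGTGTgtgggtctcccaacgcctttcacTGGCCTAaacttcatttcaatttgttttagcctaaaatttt
rpl-20, chrIV:4750019-4750169, minus strand: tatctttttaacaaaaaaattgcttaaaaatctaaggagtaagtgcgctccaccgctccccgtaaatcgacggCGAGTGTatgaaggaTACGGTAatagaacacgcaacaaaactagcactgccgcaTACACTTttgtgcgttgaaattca
rpl-15, chrIV:654852-655002, minus strand: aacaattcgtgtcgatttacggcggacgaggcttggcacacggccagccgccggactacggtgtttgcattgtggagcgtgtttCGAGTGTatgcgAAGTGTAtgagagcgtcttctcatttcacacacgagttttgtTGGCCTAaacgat
rpl-35, chrIII:7854604-7854754, plus strand: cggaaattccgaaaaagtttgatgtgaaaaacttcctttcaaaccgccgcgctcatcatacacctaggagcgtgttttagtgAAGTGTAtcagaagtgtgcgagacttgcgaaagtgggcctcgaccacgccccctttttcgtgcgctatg
rps-1, chrIII:4475611-4475761, plus strand: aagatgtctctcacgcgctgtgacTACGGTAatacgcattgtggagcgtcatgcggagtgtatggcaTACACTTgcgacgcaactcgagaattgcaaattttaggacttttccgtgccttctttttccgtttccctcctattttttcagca
rps-23, chrIV:12391262-12391412, minus strand: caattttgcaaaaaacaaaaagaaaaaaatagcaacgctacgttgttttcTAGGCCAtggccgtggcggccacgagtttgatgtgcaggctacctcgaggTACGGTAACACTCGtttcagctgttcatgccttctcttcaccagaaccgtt
In the next pair, shown because they are the 2 summits near ribosomal protein genes with the Otx core, capitals mark GGATTA, the reverse complement of TAATCC.
rpl-12, chrIV:13240658-13240808, minus strand: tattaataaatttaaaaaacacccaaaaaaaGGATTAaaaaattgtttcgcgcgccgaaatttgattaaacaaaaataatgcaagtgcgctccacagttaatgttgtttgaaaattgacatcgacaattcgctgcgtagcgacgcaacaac
rpl-32, chrII:9058363-9058513, minus strand: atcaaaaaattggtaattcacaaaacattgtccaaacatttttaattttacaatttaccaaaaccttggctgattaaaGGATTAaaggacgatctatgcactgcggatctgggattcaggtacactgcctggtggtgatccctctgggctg

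The rpl-3 summit carried all 4 elements within 100 bp, and element 2 began 5 bp downstream of the summit. The rpl-20, rpl-15 and rps-23 summits carried 3 elements each and rps-1 carried 2. At rps-23, element 1 and the reverse complement of element 2 stood end to end, from 25 to 38 bp downstream of the summit. At rpl-20 element 2 lay across the summit, from -2 to 4 bp. At rpl-15 element 2 ran from 9 to 15 bp and element 3 from 21 to 27 bp downstream of the summit, both on the strand of the gene.

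Both subunits were represented among the 14 genes. An optimal peak lay near 7 of the 47 large subunit genes (14.9%) and near 7 of the 31 small subunit genes (22.6%), and the difference of the shares was not tested. Among the other 19907 protein-coding genes, 821 (4.12%) had an optimal peak. Each of the 14 genes had 1 optimal summit in its window, and the 14 summits were distinct. All 14 lay upstream of the start. Their signal, the value that the authors' peak caller gave each entry, ran from 87.8 to 308.9 with a median of 129.5, beside a median of 125.6 for the strongest peaks of the other 821 genes, in an optimal list that ran from 87.2 to 4170.3. The peaks near ribosomal protein genes thus had signals typical of the optimal list, and 8 of the 14 were among its 831 strongest.

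Among the large subunit genes, rpl-3, whose product lies near the peptidyl transferase centre, had the strongest peak. Its summit at chrIII:3867600, between genes and 254 bp upstream of the start, had a signal of 308.9 in the optimal list, 110.9 in the list of replicate 1 and 202.6 in that of replicate 2. It ranked 148 among the 1662 optimal peaks, 239 among the 30000 entries of replicate 1 and 97 among the 30000 of replicate 2. Signals belong to their own list, so replicates were compared by rank. No other protein-coding gene had its window over this summit.

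The rpl-20 and rpl-15 peaks came next. The rpl-20 summit at chrIV:4750094 lay 316 bp upstream of the start and had a signal of 240.1 (rank 251), with 103.1 in replicate 1 (rank 276) and 130.2 in replicate 2 (rank 269). The rpl-15 summit at chrIV:654927 lay 351 bp upstream and had a signal of 199.1 (rank 362), with 71.8 in replicate 1 (rank 534) and 124.5 in replicate 2 (rank 290). Both kept a high place in each replicate, and the ranks of rpl-20 were nearly equal. The peak of rpl-35, whose product sits at the rim of the peptide exit tunnel, had its summit at chrIII:7854679, 455 bp upstream, with a signal of 152.5 (rank 579), 52.1 in replicate 1 (rank 989) and 93.9 in replicate 2 (rank 495).

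The other large subunit peaks were weaker. The gene rpl-12 encodes a protein of the base of the stalk, where the elongation factors bind. Its summit at chrIV:13240733 lay 82 bp upstream, the nearest to a start of the 14, with a signal of 109.0 (rank 1040), 59.3 in replicate 1 (rank 757) and 49.3 in replicate 2 (rank 1756). The gene rpl-24.2, counted here by its symbol, encodes a relative of RPL24 whose orthologs in yeast and humans act in assembly of the large subunit. Its summit at chrI:9669320 lay 95 bp upstream, in an intron of C03D6.1, with a signal of 106.4 (rank 1084), 44.7 in replicate 1 (rank 1394) and 55.4 in replicate 2 (rank 1349). The rpl-32 summit at chrII:9058438 lay 1353 bp upstream, the farthest of the 14, with a signal of 97.8 (rank 1278) and 59.8 in replicate 2 (rank 1156). Replicate 1 had 2 entries over that peak, the stronger with a signal of 40.1 (rank 1842) and its summit 158 bp away.

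Among the small subunit genes, rps-26 and rps-28, whose products lie where messenger RNA leaves the small subunit, had the strongest peaks. The rps-26 summit at chrI:14759538 lay 392 bp upstream with a signal of 190.8 (rank 394), 74.6 in replicate 1 (rank 507) and 112.2 in replicate 2 (rank 362). The rps-28 summit at chrIV:1659276 lay 415 bp upstream with a signal of 171.6 (rank 485), 64.8 in replicate 1 (rank 641) and 104.9 in replicate 2 (rank 408). Both ranked higher in replicate 2. The rps-19 summit at chrI:9626126 lay 330 bp upstream with a signal of 130.8 (rank 755), 52.5 in replicate 1 (rank 970) and 86.3 in replicate 2 (rank 578). In humans, RPS19 is mutated in many patients with Diamond-Blackfan anaemia. The rps-1 summit at chrIII:4475686 lay 232 bp upstream, in an exon of the non-coding gene F56F3.10, with a signal of 128.2 (rank 786), 68.5 in replicate 1 (rank 588) and 62.8 in replicate 2 (rank 1053).

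The rps-20 summit at chrI:14469373 lay 270 bp upstream with a signal of 119.0 (rank 898), 41.2 in replicate 1 (rank 1720) and 80.9 in replicate 2 (rank 646). Its rank differed the most between replicates in the direction of replicate 2. The rps-11 summit at chrIV:11602118 lay 523 bp upstream with a signal of 91.7 (rank 1473), 46.3 in replicate 1 (rank 1277) and 45.1 in replicate 2 (rank 2202). The rps-23 summit at chrIV:12391337 lay 284 bp upstream with a signal of 87.8 (rank 1634), 44.3 in replicate 1 (rank 1422) and 46.7 in replicate 2 (rank 2002). The product of rps-23 lies near the decoding centre. The rps-11 and rps-23 peaks were the weakest of the 14, just inside the lowest optimal signal of 87.2. All 9 peaks from rpl-3 down to rps-20 had a −log10 q-value of 2.46, the highest in the list, and the other 5 had values from 2.23 to 2.29.

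**Figure D1:**
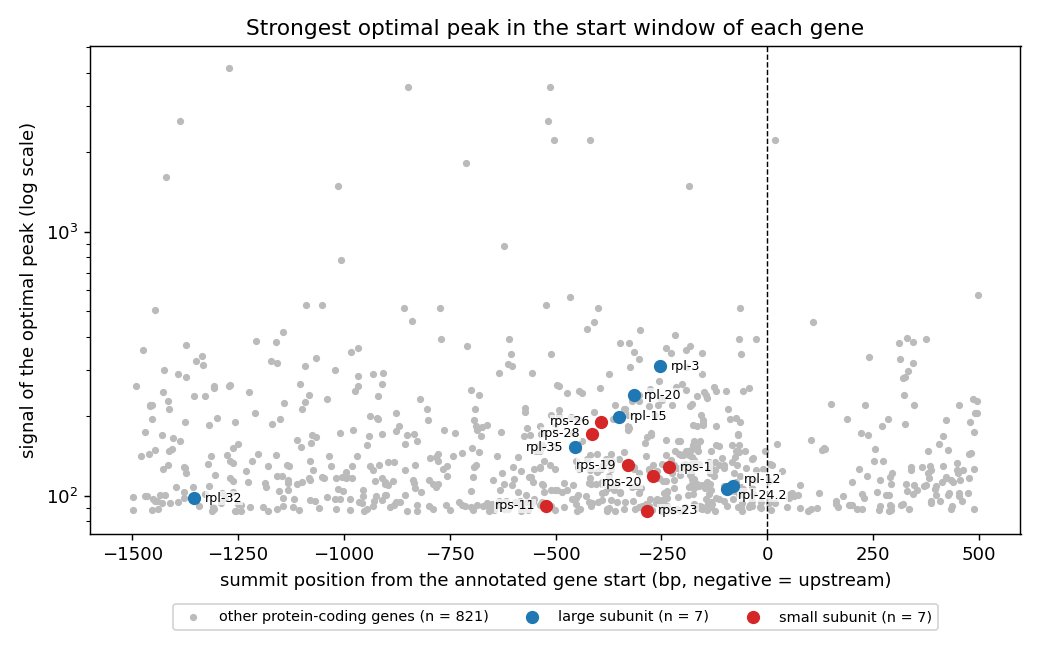
Each point is a gene with an optimal peak in its window. The horizontal axis is the summit position from the annotated start in bp (negative, upstream) and the vertical axis the signal on a log scale, for 7 large subunit genes in blue, 7 small subunit genes in red and 821 other protein-coding genes in grey. The 14 coloured points are all upstream, 11 of them between -550 and -150 bp, with signals from 87.8 to 308.9.

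The summits near ribosomal protein genes stood in a narrow range upstream of the start. Their median offset was -323 bp, with -316 bp for the large and -330 bp for the small subunit, and 11 of 14 (78.6%) lay between -550 and -150 bp, a band drawn after the 14 summits were seen. The exceptions were rpl-32, rpl-12 and rpl-24.2. Among the strongest summits of the 821 other genes, 83.3% were upstream, the median was -390 bp with quartiles at -897 and -131 bp, and 269 (32.8%) lay in the same band. The medians of both sets are close, and the spread is what differs in this description.

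The same band held many summits of weaker entries that did not define it. Of the 64 ribosomal protein genes without an optimal peak, 56 had an entry of the pooled list in the window, and 26 of these (46.4%) had their strongest one in the band, with a median offset of -279 bp. Among the other 8856 genes with a pooled entry the band held 2096 (23.7%), with a median of -368 bp. Over all 70 ribosomal protein genes with a pooled entry, the 100 bp step from -300 to -200 bp held the most, 13 genes (18.6%), against 6.3% of the other genes. The highest step of the other genes, from -200 to -100 bp, held 8.04% of them.

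**Figure D2:**
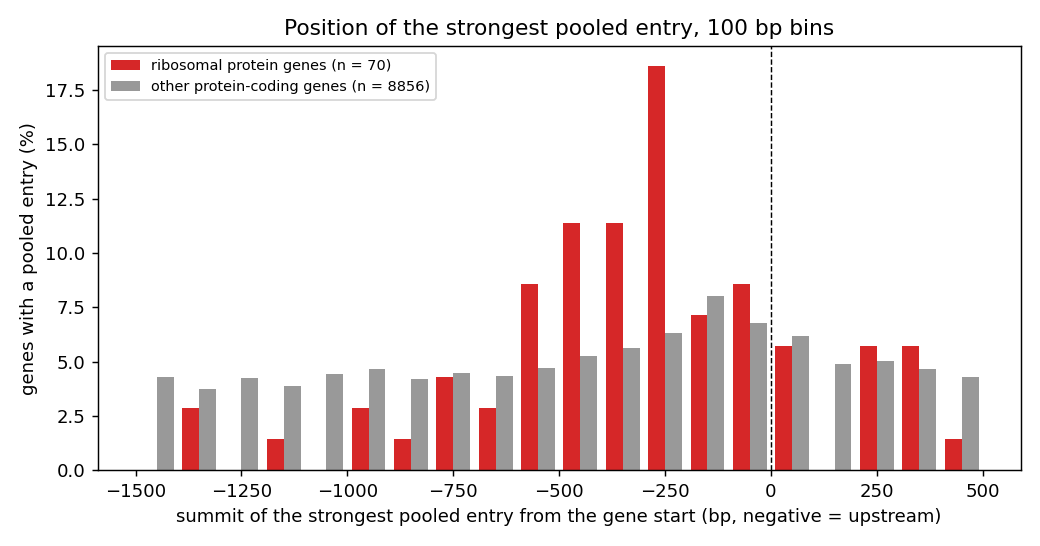
The bars give the percentage of genes whose strongest pooled entry has its summit in each 100 bp step from the gene start (horizontal axis, bp, negative upstream), for 70 ribosomal protein genes in red and 8856 other genes in grey. The red bars rise to 18.6% from -300 to -200 bp, and the grey bars stay at or below 8.04% throughout.

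The annotated starts themselves carry the mark of a splice acceptor. The bases AG stood directly before the start of 66 of 78 ribosomal protein genes (84.6%) and of 5444 of the other genes (27.3%). The longer acceptor TTTCAG stood directly before 38 ribosomal protein genes (48.7%) and 12.1% of the others. The start codon followed within 30 bp in 69 ribosomal protein genes (88.5%), against 61.9% of other genes. Genes with and without an optimal peak were alike in this: AG preceded 12 of the 14 with a peak (85.7%) and 54 of the 64 without (84.4%). Whether a start placed at a splice acceptor has a part in the upstream position of the summits was not tested.

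Nearly all ribosomal protein genes had some entry in the weaker lists. The pooled list, called on both replicates together and cut at 30000 entries, had an entry in the window of 70 of 78 ribosomal protein genes (89.7%), against 44.7% of all protein-coding genes. By subunit these were 41 large (87.2%) and 29 small (93.5%). A pooled entry could count for both genes of a neighbouring pair, as at rpl-24.1 and rps-10, rpl-36 and rps-14, and rpl-39 and rps-30. The entries were thus fewer than the 70 genes. Among genes with a pooled entry, 14 of 70 ribosomal protein genes (20%) had an optimal peak, against 9.35% of all such genes. The 1662 optimal peaks were the 1662 strongest pooled entries, so the optimal list equalled the pooled list cut at a signal threshold. The median pooled signal over the 70 genes was 49.8, and it was 41.4 over the other 8856.

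**Figure D3:**
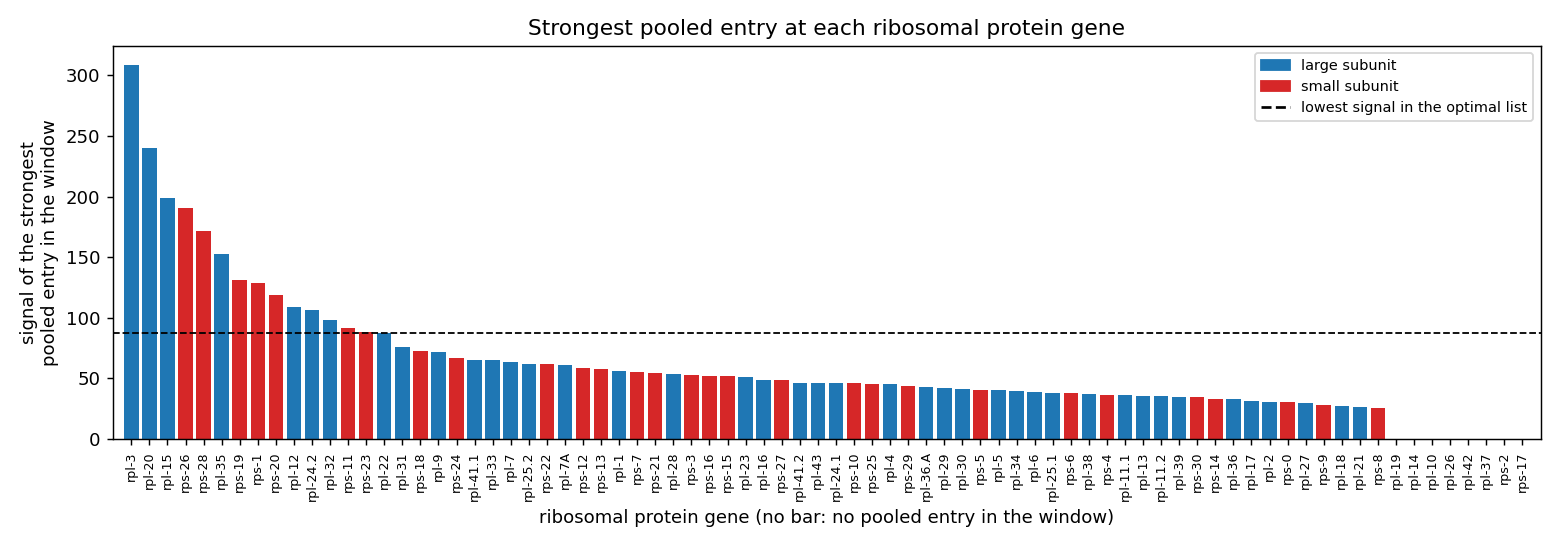
Each bar is the signal of the strongest pooled entry in the window of a ribosomal protein gene, ordered by height, with large subunit genes in blue and small subunit genes in red. The dashed line at 87.2 is the lowest signal of the optimal list, and 14 bars reach above it while rpl-22 stands at it and 8 genes have no bar.

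The threshold ran through a continuous series of ribosomal protein genes. The gene rpl-22 had a pooled signal of 87.2 at rank 1663, the first entry left out of the optimal list, with its summit 299 bp upstream. In replicate 1 its strongest entry had a signal of 32.1 (rank 3414) and in replicate 2 it had 58.7 (rank 1194). The replicate 1 entry was another site, 95 bp upstream, while that of replicate 2 lay 298 bp upstream. Next was rpl-31, whose product lies by the peptide exit tunnel, with a pooled signal of 76.1 (rank 2259), 26.9 in replicate 1 (rank 5753) and 52.5 in replicate 2 (rank 1503). The strongest replicate 2 entry of rpl-31 had its summit 20 bp downstream of the start, while the pooled and replicate 1 entries had theirs 261 bp upstream. The gene rps-18 had a pooled signal of 72.1 (rank 2599), 45.5 in replicate 1 (rank 1344) and 47.4 in replicate 2 (rank 1936). Its replicate entries were different sites, 519 bp upstream in replicate 1 and 1168 bp upstream in replicate 2.

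The next 5 by pooled signal were rpl-9, rps-24, rpl-41.1, rpl-33 and rpl-7. The rpl-9 entry lay 260 bp upstream with a pooled signal of 71.6, 33.1 in replicate 1 and 36.4 in replicate 2. The rps-24 entry lay 334 bp upstream with a pooled signal of 67, 35.4 in replicate 1 and 30.5 in replicate 2. These had a similar position in each list, with summits from 257 to 377 bp upstream. The rpl-41.1, rpl-33 and rpl-7 entries had pooled signals of 65.3, 64.7 and 63.1. Their summits lay 1361, 400 and 476 bp upstream. Over all 56 genes with a pooled entry but no optimal peak, the pooled signal ran from 25.5 to 87.2 with a median of 45. No pooled entry lay in the window of rpl-10, rpl-14, rpl-19, rpl-26, rpl-37, rpl-42, rps-2 or rps-17.

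Outside the window, the nearest optimal summits belonged to rpl-11.1 and rpl-27. A summit at chrV:3587825 lay 1761 bp upstream of rpl-11.1 with a signal of 142.7, and one at chrI:1835588 lay 705 bp downstream of the start of rpl-27 with a signal of 148.3. By chromosome, 4 of 23 ribosomal protein genes on chromosome I had an optimal peak, 1 of 10 on II, 3 of 18 on III, 6 of 17 on IV, 0 of 8 on V and 0 of 2 on X. Of all protein-coding genes, 156 of 2878 on I had one, 167 of 3449 on II, 162 of 2640 on III, 108 of 3281 on IV, 128 of 4994 on V and 102 of 2731 on X. The counts of 0 on V and X are over few ribosomal protein genes and show no difference from those shares.

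The replicates found similar sets. When each replicate list was cut to its 1662 strongest entries, 13 ribosomal protein genes (16.7%) had an entry in replicate 1, against 3.99% of all genes, and 13 (16.7%) in replicate 2, against 4.11%. Both lists had an entry near 9 ribosomal protein genes (11.5%), against 2.86% of all genes. These were rpl-3, rpl-15, rpl-20, rpl-24.2, rpl-35, rps-1, rps-19, rps-26 and rps-28. They made up 69.2% of the genes of each replicate, close to the 71.8% and 69.6% over all genes. Replicate 1 alone had rpl-12, rps-11, rps-18 and rps-23, and replicate 2 alone had rpl-22, rpl-31, rpl-32 and rps-20.

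The 14 optimal peaks ranked higher in replicate 2 for 10 genes and in replicate 1 for rps-1, rpl-12, rps-11 and rps-23. Among the 1662 strongest entries of each replicate were 12 of the 14 in replicate 1 and 11 in replicate 2. The strongest 8 peaks were among them in both, and the peaks below split between the replicates except for rpl-24.2. Summit positions were close: the median distance between the optimal and the replicate summit was 3 bp in replicate 1 and 10.5 bp in replicate 2.

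**Figure D4:**
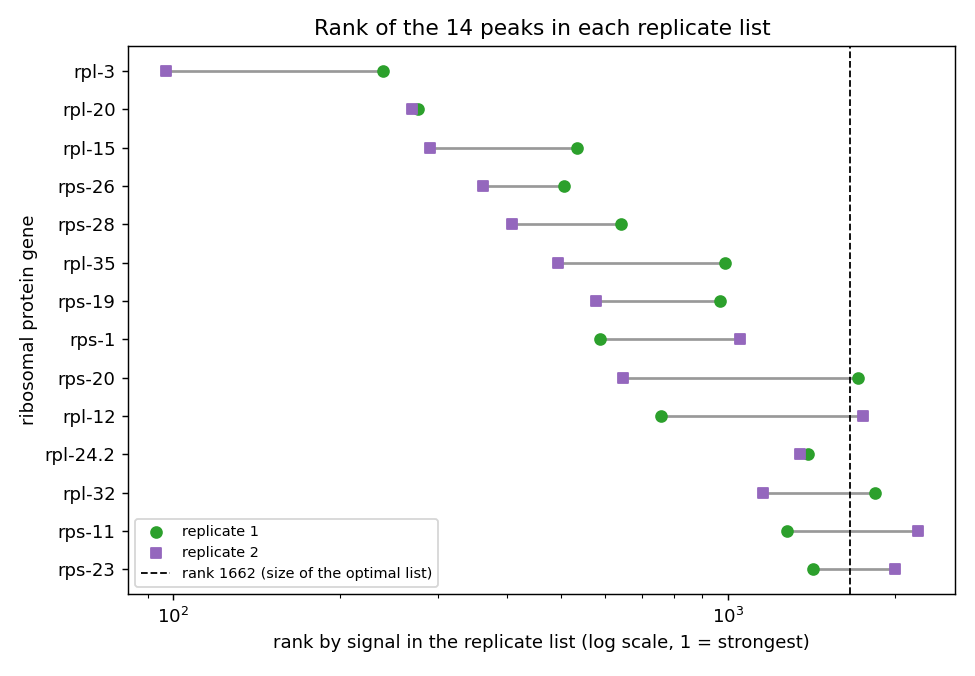
Each row is 1 of the 14 ribosomal protein genes with an optimal peak, ordered by optimal signal, and the horizontal axis (log scale) is the rank of its peak in replicate 1 (green circle) and replicate 2 (purple square). The dashed line is rank 1662, and 5 genes, rps-20, rpl-12, rpl-32, rps-11 and rps-23, have 1 replicate beyond it.

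Many of these summits were also in reach of a neighbouring gene. For 9 of 14 (64.3%) the summit was also in the window of another protein-coding gene, and for 8 (57.1%) that gene was on the opposite strand. Among the other 821 genes these shares were 45.4% and 38.2%. For 5 of the 14 (35.7%) the nearest start was the neighbour's, against 27.5% of the others. The neighbours were Y17G9B.5, 146 bp from the rpl-20 summit, dpm-3, 250 bp from the rps-23 summit, and tmem-107, hsr-9 and ekl-4, at 65, 115 and 127 bp from the summits of rps-26, rps-19 and rps-20. The protein TMEM-107 belongs to the ciliary transition zone, and HSR-9 is related to the human DNA damage protein TP53BP1. The list does not tell to which gene of such a pair a peak belongs.

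For the other 3 with a divergent neighbour the ribosomal protein gene was the nearer. The rpl-15 summit lay 463 bp from the start of K11H12.8, and the rps-1 summit 536 bp from that of ifet-1, which encodes a repressor of translation in the germ line. The rpl-12 summit lay 311 bp from lin-54, which encodes a DNA-binding subunit of the DREAM complex. Starts of the 8 divergent pairs were 393 to 814 bp apart. The summits of rpl-3, rpl-35, rpl-24.2, rpl-32 and rps-11 were in no other window.

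Small RNA genes were near few of the peaks. Of the 14 strongest summits, 1 (7.14%) had a tRNA gene at most 500 bp away or a snoRNA gene at most 200 bp away. It was the summit of rps-26, 126 bp from the snoRNA gene F39B2.14. Among all 1636 nuclear optimal peaks the share was 16.4%, and among the strongest summits of the other 821 genes 15.5%. Within 1000 bp there were 3, as the rpl-15 summit lay 566 bp from K11H12.13 and the rps-23 summit 682 bp from F28D1.13, and 0 had a tRNA gene.

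Ribosomal protein genes hold snoRNA genes in their windows more often than other genes, 14 of 78 (17.9%) against 0.829%. None had a tRNA gene there, against 1.02% of other genes. An optimal peak lay near 3 of the 14 ribosomal protein genes with a snoRNA gene in the window (21.4%) and near 11 of the 64 without one (17.2%), a difference too small to read in counts of this size. Among other genes with a snoRNA gene in the window the share was 34 of 165 (20.6%), close to that of the ribosomal protein genes, and among other genes with a tRNA gene it was 51%. Over all genes with a small RNA gene of either kind in the window, 36.8% had an optimal peak, and over all genes without, 3.55%. Of the 13 ribosomal protein genes that overlap a snoRNA gene, rpl-15 and rps-23 had an optimal peak. The 11 others, among them rpl-7A, rps-12 and rps-13, had none.

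Few of these peaks held the Otx core, and the difference from other peaks was not tested on so small a count. TAATCC, searched on both strands within 100 bp of the summit, was present at 2 of the 14 (14.3%), against 42.2% of the other 1622 nuclear optimal peaks. On the strand opposite to the gene, at rpl-32 it began 3 bp downstream of the summit, and at rpl-12 it lay from -44 to -39 bp. The longer CTAATCC, which contains the core, was at 0 of the 14 and at 25.5% of the others. The other 1622 peaks, here and in the paragraphs below, were taken wherever they lay and not only in start windows. Differences from them thus mix the position of a peak with the kind of gene. Both peaks with the core were outside the 831 strongest. In the 500 bp upstream of the start, the core stood in 14.3% of ribosomal protein genes with a peak, 3 of 64 (4.69%) without one, 22% of other genes with a peak and 15.4% of all other genes. The ribosomal protein genes with a peak and the core there were rpl-12 and rps-26. The rpl-32 summit lies farther upstream than that stretch.

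Other sequences searched were absent here in some cases and present in others. Repeats of the telomere unit, taken as at least 3 copies of TTAGGC or its reverse complement in a window about as wide as the median peak (390 bp), were at 0 of the 14 and at 571 of the other 1622 (35.2%). Those 1622 were not limited to start windows. Fewer copies were at 4 of the 14, rpl-3, rpl-15, rps-26 and rps-28, with at most 2 at rpl-3. GGTTCGA, a word of the internal promoter of tRNA genes, was at 0 of 14 and 9.93% of the others. GAGAGA was at 2 of 14 (14.3%) and 17.3% of the others, and CCGCCC at 2 of 14 (14.3%), rps-28 and rps-19, and 9.43% of the others. TTTCAG was at 4 of 14 (28.6%), rpl-15, rps-1, rps-11 and rps-23, and 13.9% of the others. These counts of 2 and 4 are too small to read a difference from. The GC content within 100 bp of the summit was 28.9 to 45.8% with a median of 42%, beside a median of 45.3% at the other peaks.

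The 4 elements were chosen with these 14 summits in view, from words of 7 bases that stood at 5 or more of them and at under 5% of the other peaks. There were 8 such words, and the 4 also stood in under 10% of other genes' upstream sequences. Each element was at 5 of the 14 summits (35.7%) by that choice, against 2.28% of other peaks for element 1, 1.23% for element 2, 2.59% for element 3 and 4.87% for element 4. Any of the 4 was at 10 of the 14 summits and at 170 of the 1622 other peaks (10.5%). The rps-19, rpl-12, rpl-32 and rps-11 summits had none, and the peaks with 2 or more were rpl-3, rpl-20, rpl-15, rps-23 and rps-1. Element 4 overlaps by letters the reverse complement GCCTAA of the telomere unit. The summits of rpl-3, rpl-15, rps-26 and rps-28, which held a copy of the unit, all carried element 4. In the rpl-3 and rpl-15 sequences shown, the same bases count for both.

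**Figure D5:**
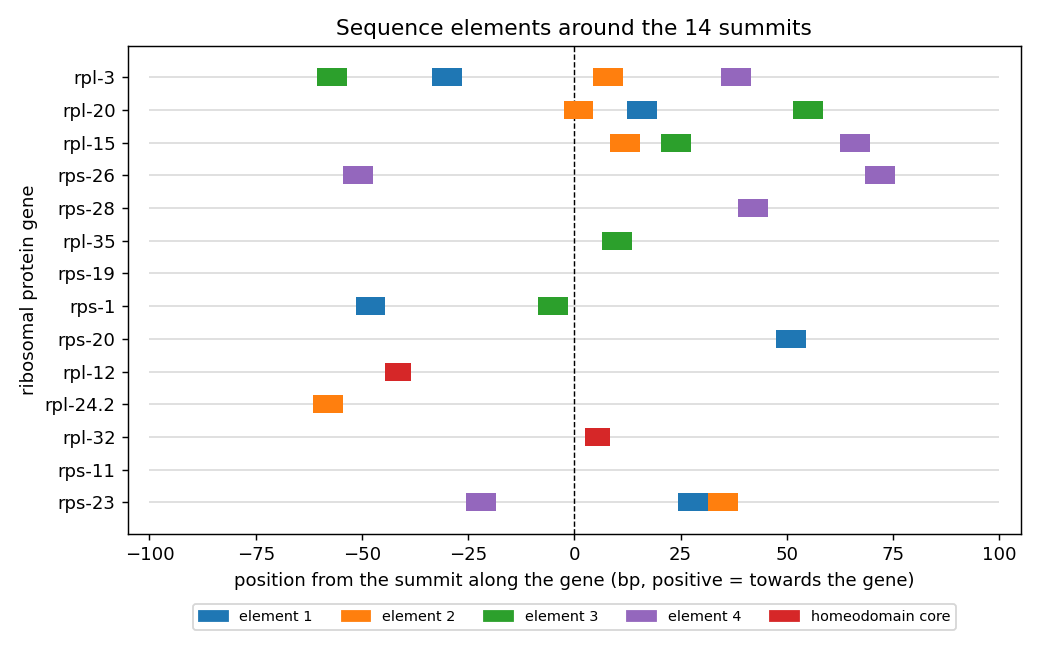
Each row is a ribosomal protein gene with an optimal peak, ordered by signal, and the horizontal axis is the position in bp from the summit along the gene, positive towards it. Coloured blocks mark elements 1 to 4 and the homeodomain core TAATCC, on either strand. The rpl-3 row holds all 4 elements, the rps-19 and rps-11 rows hold no mark, and the core stands alone in the rpl-12 and rpl-32 rows.

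The 64 ribosomal protein genes without an optimal peak had no part in that choice, but the other genes did. Their shares were held under 10% by the rule that kept the 4 elements, so the contrasts below are partly set by it. The words not kept were ATTTTAG (40.6% of the 64 against 20.1% of other genes), AAAATAG (37.5% against 27.8%), AAATTCA (43.8% against 36.3%) and AAATTGC (20.3% against 20.7%). In the 500 bp upstream of their starts, any element stood in 30 (46.9%), against 19.9% of all other genes and 18% of other genes with an optimal peak. Element 1 stood in 12 of the 64 (18.8%) against 7.18% of other genes, and element 2 in 12 (18.8%) against 2.55%. The neighbours rpl-24.1 and rps-10 both counted for element 1, and their upstream sequences overlap. The upstream sequences of rpl-36 and rps-14, and those of rpl-39 and rps-30, overlap as well. A match can thus count for both genes of a pair in any of these counts. Element 4 stood in 18 (28.1%) against 3.89%. Element 3 did not follow, with 2 of 64 (3.12%) against 7.93%. Elements 1, 2 and 4 thus also stood upstream of many ribosomal protein genes with no optimal peak. A match is a description of the sequence and names no factor.

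Shares of genes with an optimal peak varied among other lists of the translation machinery, to be read beside the 4.18% of all genes. Of 6 cytosolic ribosomal proteins with other symbols (rla-0, rla-1, rla-2, ubl-1, ubq-2 and rack-1), 1 (16.7%) had an optimal peak, rack-1, with a summit 1435 bp upstream and a signal of 101.0. Of 70 mitochondrial ribosomal protein genes 6 (8.57%) had one. The strongest 5 of these were mrps-28, with a summit 1008 bp upstream and a signal of 780.5, mrpl-23 (966 bp, 285.4), mrpl-12 (513 bp, 130.5), mrps-6 (1262 bp, 113.3) and mrpl-48 (1251 bp, 93). Of 25 initiation factor genes 3 (12%) had one. The strongest was at eif-2Bgamma, 908 bp upstream with a signal of 290.8, and at eif-3.C and eif-3.D, subunits of an initiation factor, the summits lay 257 and 254 bp upstream with signals of 272.2 and 94.3. Of 6 elongation factor genes 2 (33.3%) had one, eef-1A.1 and eef-1A.2, which encode the factor that brings aminoacyl-tRNA to the ribosome. Their summits lay 374 and 375 bp upstream with signals of 90 and 118.5. Of 31 aminoacyl-tRNA synthetase genes 2 (6.45%) had one, ears-2 with a summit 26 bp upstream and a signal of 392.2 and yars-2 with a summit 50 bp downstream and a signal of 97.9. Of 19 genes on a list of ribosome biogenesis genes, which did not hold rpl-24.2, 0 had one although 14 had a pooled entry. With 19 genes, a count of 0 is too small to read a difference from 4.18%. The shares of the other lists rest on 1 to 6 genes with a peak and are likewise too small to read.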

How the data were processed

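Depth is unknown, because the deposited lists hold no read counts. The files used are 4 peak lists on ce11: 1 per replicate and 1 on pooled replicates, each of 30000 entries, and the optimal list of 1662 (26 of them mitochondrial). Per the file descriptions, the authors made the replicate and pooled lists from alignments of the replicates and a control, and then used these lists to make the optimal one. The sources used here name neither the aligner nor the peak caller. The signal in the deposited lists and the −log10 q-value deposited beside it are those of the authors' peak caller, as is the summit, deposited as a distance from the entry start, and they were used only within a list. Lists on ce10 were not used, nor was any list from an untagged strain.

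Starts came from the Ensembl release 115 annotation of WBcel235, and 0 entries ran past a chromosome end. A summit could count for several genes, and the strongest per gene was described. Coordinates count from 1. Python 3.11.15, pandas 2.3.3, numpy 2.4.6 and matplotlib 3.10.9 were used, and summit assignment was checked on simulated summits. With 2 replicates, 1 group and no counts, no test was made. The named genes were all ribosomal protein genes with an optimal peak, the 8 next strongest, those with the nearest summits outside the window, and the bound members of other translation lists, up to 5 per list. Members and lists were chosen with earlier results of these data known, and the 7-base elements and the offset band after the summits were seen.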

Additional observations from a re-analysis of the deposited data

How the results depend on the processing

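Of 41 alternative values, 30 stayed within 1.5 times the count or, for the median offset, within the spread of 25.5 bp (SD, n = 2) between replicates, 11 moved and 0 reversed. That spread came from the 2 replicate medians themselves, so it cannot judge those medians, and a count has no direction to reverse. The 14 ribosomal protein genes with a peak became 8 among the 831 strongest optimal peaks (4 large, 4 small), 9 when only the nearest start counted (6 large, 3 small) and 70 with every pooled entry (41 large, 29 small). With the strongest 1662 entries of 1 replicate in place of the optimal list, there were 13 either way, 5 to 7 small and 6 to 8 large subunit genes, and the median offset was -334 to -298 bp. A window of 500 bp either side gave 12, and overlap of the interval or the start of any transcript gave 14. Within 1000 bp of a tRNA or snoRNA gene were 3 summits in place of 1. Summits with TAATCC were 1 without replicate 2, 2 without replicate 1 and 0 among the 831 strongest. The 2 without replicate 1 were not the same pair as in the optimal list, because rpl-12 was not among the genes of replicate 2. No paired analysis was possible because there is 1 group. The limits are an unknown depth, 2 replicates, and windows that neighbouring genes share, so that 1 peak can count for several genes.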
